A study of Mus musculus with 9 samples.

Results

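Duodenal organoids that overexpressed human HIF2 were compared directly with organoids that overexpressed human HIF1, to describe which functions part both factors when each is expressed in the same cells. The samples were chosen by their transduction label. They were 6 of the 9 samples of the series, 3 transduced with Ad-hHIF2 and 3 with Ad-hHIF1. The other 3 samples, transduced with Ad-GFP, entered the same fit and give the level without a HIF vector. All 9 samples came from wild-type C57BL/6J mouse duodenal crypts, grown in Matrigel as 3D organoids at 5% oxygen in L-WRN conditioned medium, which supplies Wnt3a, R-spondin 3 and noggin, with the ROCK inhibitor Y27632, the TGF-β receptor inhibitor SB431542 and nicotinamide. The organoids were dissociated to single cells and transduced with adenovirus at 50 particles per cell, and RNA was taken about 72 h later. Both HIF transgenes carried alanine in place of the prolines that EGLN enzymes hydroxylate, so neither protein could be marked for destruction by VHL. As models, the groups are limited to forced and transient expression of a human protein, and none of them was compared at another oxygen level. The replicates were numbered 1, 3 and 4 in each group. The study calls them biological replicates, but neither it nor the labels say for these libraries whether that means separate mice or separate cultures, so the p-values measure only the spread between these samples.

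HIF1 and HIF2 are transcription factors made of an oxygen-controlled α subunit (Hif1a or Epas1) and the shared partner Arnt. Both bind the same short DNA core in hypoxia-responsive genes. HIF1 is best known for driving glycolysis, and HIF2 is known in the intestine for iron uptake and in other tissues for erythropoietin, vascular and matrix genes.

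RNA abundance was measured as estimated counts per gene, which summed to between 25206650 and 51119041 in the 6 HIF samples. Levels below are in CPM, the counts scaled to library size after TMM normalization, in the order of replicates 1, 3 and 4. Group means are ± SD over the 3 samples, and log2 fold changes (Ad-hHIF2 minus Ad-hHIF1) are ± standard error. The organoids kept simple-epithelial keratins (Krt8 at 84.6 to 169.7 TPM in the 6 HIF samples), Cdh1 (6.92 to 20.4 TPM) and the intestinal cadherin Cdh17 (5.05 to 24.8 TPM), which with Krt18 and Krt19 made 5 of 9 epithelial markers at or above 1 TPM. The other 4 were low or absent, with Epcam at 0.13 to 0.23 TPM, Vil1 at 0.16 to 0.43 TPM, Cdx2 at 0.42 to 0.99 TPM and Cdx1 at 0. Of 37 markers of fibroblasts, endothelium, immune cells, muscle, neurons and glia, and stomach, 34 stayed below 1 TPM in all 9 samples.

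The Ad-hHIF1 replicate 3 library stood apart from the others. It held 16.0% of its counts in the satellite-like genes Gm10800 and Gm26870, against 4.28% and 1.15% in the other Ad-hHIF1 libraries and 0.433% to 2.02% in the Ad-hHIF2 libraries. Receptor genes that are silent outside sensory tissue (1447 olfactory, vomeronasal and trace amine receptors) took 0.0397% of its counts, against at most 0.0145% in the other 5 HIF libraries. The Ad-hHIF2 replicate 1 library differed in another way, with 59.2% of its counts in protein-coding genes against 45.6% to 49.4% in the other 5. Counts are therefore given with and without Ad-hHIF1 replicate 3, which can be seen in the plot of both background shares.

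**Figure D1:**
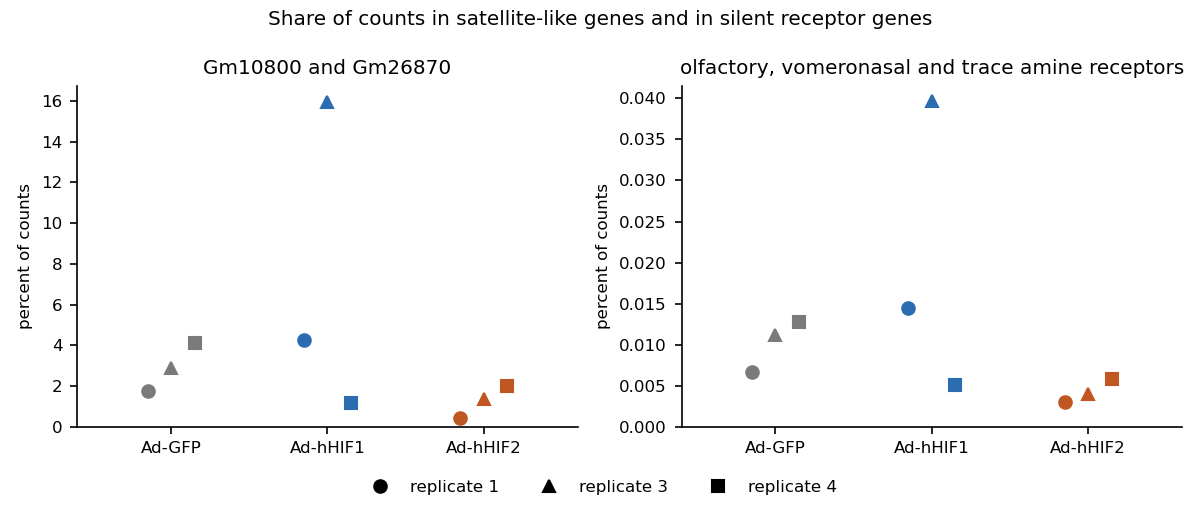
Percent of each library's counts in the satellite-like genes Gm10800 and Gm26870 (left) and in 1447 silent receptor genes (right), by group, 1 point a sample. Ad-hHIF1 replicate 3 is the highest point in both panels, at 16.0% and 0.0397%.

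The transgenes were checked first. Epas1, the mouse gene for the HIF2 α subunit (chr17:86753700.0-86833410.0, GRCm38), was at 758, 604 and 654 CPM in the Ad-hHIF2 samples and 1.69, 3.07 and 1.56 CPM in the Ad-hHIF1 samples (log2 fold change 8.35 ± 0.28, adjusted p = 5.4e-08), and at 1.77 ± 0.382 CPM in the Ad-GFP samples. The groups were far apart, so the Ad-hHIF2 labels held. Hif1a was at 244, 211 and 226 CPM in the Ad-hHIF2 samples and 309, 319 and 299 CPM in the Ad-hHIF1 samples (log2 fold change -0.45 ± 0.10, adjusted p = 0.0086), against 219.7 ± 28.01 CPM in the Ad-GFP samples. The Ad-hHIF1 samples all lay above the Ad-hHIF2 samples, but by under 2-fold, so reads assigned to mouse Hif1a give only a weak check of the Ad-hHIF1 labels. Both transgenes are human, and reads from them reached these values only where they were assigned to the mouse gene.

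Of 15556 genes tested, 376 were called higher with Ad-hHIF2 and 575 were called lower, with Ad-hHIF1 as the reference, at an adjusted p below 0.05 (edgeR quasi-likelihood test) and at least 2-fold. These are 2.42% and 3.70% of all genes tested, the shares to set beside every count of called list members below. The gene lists were chosen with earlier results of these data known. Their counts therefore describe the lists and are no independent evidence of a direction. With no fold minimum, 2137 genes were higher (13.7%) and 1871 lower (12%). The median log2 fold change over all genes was -0.01. With counts scaled to their total alone, 538 genes were called higher and 482 lower at 2-fold. In bulk RNA, fewer cells that express a gene and less of its RNA per cell cannot be told apart. The 2 groups of samples did not overlap for any of the 376 higher genes, against 22.7% of all genes tested that were apart in that direction. They did not overlap for 436 of the 575 lower genes, against 19.1% of all genes. The calls were made on these same samples, so this separation follows in part from the call and adds no further support.

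The lower calls rested on single libraries more than the higher calls did. Without Ad-hHIF1 replicate 3, 313 of the 376 higher genes were still called, but only 275 of the 575 lower genes. The library that stood apart was not the only one with that effect: without Ad-hHIF2 replicate 1, 3 or 4, 232, 254 and 338 of the 575 were still called, out of 262, 295 and 380 lower calls, while 313, 319 and 325 of the higher genes were. With the share of silent receptor counts as a covariate, 275 of the higher and 197 of the lower genes were still called. Of 141 called genes named below or in the closing section, 19 lost the call with that covariate. In Ets1, Pnrc1, Sesn2, Sgpp2 and Stat6 the adjusted p held, with a log2 size of 0.83 to 0.97. Ascl2, mt-Nd4l, Rtp4 (log2 fold change -1.28 in both), Slc2a3 and Tff1 (1.39 and 1.40) lost the adjusted p at about the same size. The rest lost the adjusted p and shrank: Ass1 (log2 fold change -0.80, adjusted p = 0.086), Cacng4 (-3.42 to -0.84), Col26a1 (-1.87 to -0.31), Edn1, Mcmdc2, Muc2, Ptprc, Ramp3 and Tyms (-1.80 to -0.21). Leaving out a single HIF library ended the call of 22 named genes in at least 1 case. In 11 of them the adjusted p held and the fold went just under 2-fold, with a log2 size of 0.89 or more (Anxa8, Egln3, Ets1, Flt1, Myc, Odc1, Pnrc1, Pygl, Sesn2, Sgpp2 and Vcan). The other 11 lost the adjusted p: Ascl2, Cacng4, Col11a1, Col26a1, Edn1, Ptprc, Ramp3, Rtp4, Slc2a3, Tff1 and Tyms. Protein-coding genes made up 91.2% of the higher genes and 66.4% of the lower genes, against 82.3% of all genes tested. Genes annotated as lincRNA or as transcripts to be experimentally determined numbered 10 among the higher genes and 111 among the lower genes, of 1122 tested. The plot of log2 fold changes with and without that library shows the lower genes that shrank towards 0.

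**Figure D2:**
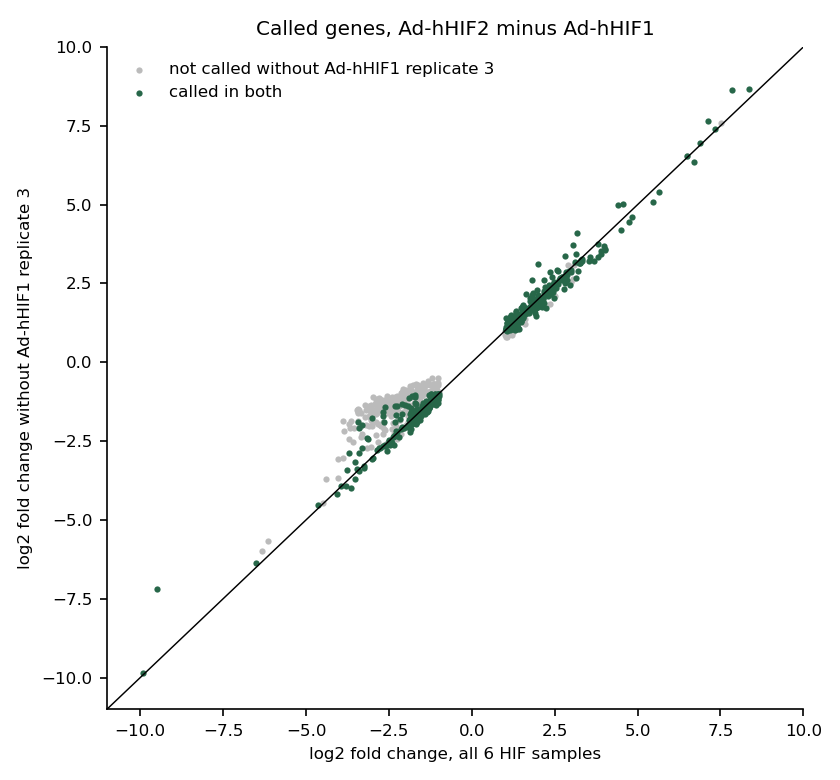
Log2 fold change (Ad-hHIF2 minus Ad-hHIF1) of called genes with all 6 HIF samples (horizontal) and without Ad-hHIF1 replicate 3 (vertical), with the line of equal values. The axes stop short of the largest lower calls, which reach a log2 size of 15.4. Genes not tested without Ad-hHIF1 replicate 3 are not drawn. The counts that follow are of all called genes, drawn or not. Green genes were called in both, 313 higher and 275 lower, and grey genes lost the call, most of them among the lower genes and above the line.

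For most called genes the Ad-GFP level lay nearer to the Ad-hHIF1 level than to the Ad-hHIF2 level on the log scale: for 356 of the 376 higher genes (94.7%) and 513 of the 575 lower genes (89.2%). The Ad-GFP mean lay below both HIF means for 187 of the higher genes, between them for 182 and above both for 7. For the lower genes these counts were 2, 475 and 98. This is a description of 3 group means and was not tested, and the same shares over all genes tested were not computed.

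The short core that both factors recognise was searched for in the 250 bases before each start in the RefSeq promoter table (GRCm38.p6), as ACGTG or GCGTG on either strand. Of the genes tested, 10229 had a window, and 61.1% of these held the core. The share was 60.1% of the 248 windows of higher genes and 53.6% of the 306 windows of lower genes. Only 66.0% of the higher and 53.2% of the lower genes had a window, under the 80% needed for a comparison, so none is drawn. Windows of 3 genes called higher and 3 genes called lower follow, to show how the same letters lie upstream of genes that moved in opposite directions. They are printed 5′ to 3′ on the gene's strand, with the core in capitals.
Igfbp3 (higher, chr11:7213924-7214173, minus strand): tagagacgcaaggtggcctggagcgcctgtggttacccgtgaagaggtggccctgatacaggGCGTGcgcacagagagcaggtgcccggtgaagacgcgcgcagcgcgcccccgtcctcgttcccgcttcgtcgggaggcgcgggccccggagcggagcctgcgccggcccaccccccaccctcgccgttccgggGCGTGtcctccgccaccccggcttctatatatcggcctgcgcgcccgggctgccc
Adm (higher, chr7:110627407-110627656, plus strand): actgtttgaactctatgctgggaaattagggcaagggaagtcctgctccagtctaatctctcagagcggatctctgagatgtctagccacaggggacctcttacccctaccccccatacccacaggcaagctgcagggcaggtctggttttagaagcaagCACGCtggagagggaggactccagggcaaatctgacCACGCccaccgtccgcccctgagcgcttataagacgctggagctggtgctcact
Edn2 (higher, chr4:120160956-120161205, plus strand): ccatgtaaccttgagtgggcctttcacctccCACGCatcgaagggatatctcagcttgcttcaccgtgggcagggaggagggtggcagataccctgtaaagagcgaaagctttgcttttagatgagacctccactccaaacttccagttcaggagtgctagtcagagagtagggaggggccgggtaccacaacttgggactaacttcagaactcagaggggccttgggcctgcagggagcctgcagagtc
P4ha2 (lower, chr11:54100674-54100923, plus strand): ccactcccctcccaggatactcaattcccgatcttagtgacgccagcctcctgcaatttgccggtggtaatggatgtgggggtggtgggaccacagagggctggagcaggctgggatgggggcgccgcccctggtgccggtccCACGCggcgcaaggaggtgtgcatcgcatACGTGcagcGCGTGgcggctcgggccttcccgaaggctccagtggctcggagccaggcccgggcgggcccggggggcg
Stc2 (lower, chr11:31370062-31370311, minus strand): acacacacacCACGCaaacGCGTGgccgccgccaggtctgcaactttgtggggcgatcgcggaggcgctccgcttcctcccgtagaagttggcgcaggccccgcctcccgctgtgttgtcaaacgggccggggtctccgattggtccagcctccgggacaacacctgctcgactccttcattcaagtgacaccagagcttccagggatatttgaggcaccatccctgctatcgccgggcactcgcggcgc
Atf3 (lower, chr1:191183334-191183583, minus strand): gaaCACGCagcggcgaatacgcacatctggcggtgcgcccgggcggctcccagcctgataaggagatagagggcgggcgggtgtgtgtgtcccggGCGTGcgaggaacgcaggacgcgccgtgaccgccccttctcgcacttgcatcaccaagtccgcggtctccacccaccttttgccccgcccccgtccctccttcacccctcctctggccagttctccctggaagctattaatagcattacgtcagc
The core occurs 2 times before Igfbp3, 2 times before Adm and 1 time before Edn2. It occurs 3 times before P4ha2, starting at bases -107, -78 and -69 from the start of transcription, and 2 times each before Stc2 and Atf3. Matching letters describe the window and show no binding.

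Among the regulators of HIF itself, Ad-hHIF2 and Ad-hHIF1 organoids differed in opposite directions at the oxygen sensors. In the list of HIF subunits and sensors, 2 of 9 tested members were called higher and 1 lower (1 and 1 without Ad-hHIF1 replicate 3), and 1 of the higher members is Epas1, the gene that was transduced. Egln3, a prolyl hydroxylase that both factors are known to induce, was at 149, 149 and 159.7 CPM in the Ad-hHIF2 samples and 76.6, 64.9 and 75.9 CPM in the Ad-hHIF1 samples (log2 fold change 1.07 ± 0.08, adjusted p = 9.9e-06), and the groups did not overlap. Egln1, the main HIF prolyl hydroxylase, was at 76.0, 73.2 and 56.0 CPM in the Ad-hHIF2 samples and 172, 175 and 179 CPM in the Ad-hHIF1 samples (log2 fold change -1.36 ± 0.18, adjusted p = 0.00042), again without overlap. Egln3 was at 56.1 ± 2.69 CPM and Egln1 at 137 ± 35.4 CPM in the Ad-GFP samples. The log2 fold change of Egln3 without Ad-hHIF1 replicate 3 was 0.99, just short of the 2-fold minimum. Arnt, the shared partner, was at 77.3 ± 4.58 against 53.4 ± 0.752 CPM (log2 fold change 0.53 ± 0.07, adjusted p = 0.00024).

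The largest differences towards Ad-hHIF2 were taken among called protein-coding genes with at least 100 normalized counts in the group where they are higher. The other group could be near 0. After Epas1 they were led by Galnt9, a GalNAc transferase that starts O-linked glycans. Galnt9 was at 18.5, 17.2 and 17.9 CPM in the Ad-hHIF2 samples and 0.0582, 0.175 and 0.0256 CPM in the Ad-hHIF1 samples (log2 fold change 7.85 ± 0.48, adjusted p = 2.1e-06), and these Ad-hHIF1 levels stand for 2, 4 and 1 reads. Pthlh, the parathyroid hormone-related peptide (chr6:147252101.0-147264183.0, GRCm38), was at 27.5, 22.9 and 26.4 CPM in the Ad-hHIF2 samples and 0.407, 0.263 and 0.767 CPM in the Ad-hHIF1 samples (log2 fold change 5.65 ± 0.28, adjusted p = 5.7e-07). Both genes were near absent without HIF2, at 0.292 ± 0.227 CPM and 0.411 ± 0.164 CPM in the Ad-GFP samples. Myl9, a regulatory light chain of nonmuscle and smooth muscle myosin, was at 3.82, 3.20 and 3.27 CPM in the Ad-hHIF2 samples and 0, 0.0438 and 0.0256 CPM in the Ad-hHIF1 samples, and as the Ad-hHIF1 levels stand for 0, 1 and 1 reads it is given no fold. Aqp8, a water channel of the intestinal epithelium, was at 16.0, 22.0 and 18.8 CPM in the Ad-hHIF2 samples and 0.669, 0.350 and 0.869 CPM in the Ad-hHIF1 samples (log2 fold change 4.84 ± 0.45, adjusted p = 3.7e-05). The rule also asked for groups that did not overlap and a call that held without Ad-hHIF1 replicate 3. That the groups lie apart for these genes is therefore part of how they were chosen. Diras2, a small Ras-like GTPase, was at 21.4 ± 2.15 against 0.765 ± 0.381 CPM (log2 fold change 4.73 ± 0.29, adjusted p = 2.2e-06). Chrna1, the α subunit of the muscle acetylcholine receptor, was at 37.96 ± 2.15 against 1.59 ± 0.819 CPM (log2 fold change 4.51 ± 0.28, adjusted p = 2.7e-06). Cthrc1, a secreted matrix protein, was at 15.2 ± 0.996 against 0.756 ± 0.531 CPM, with a log2 fold change of 4.42. Fat2, an atypical cadherin, A4galt, which makes the globoside Gb3, and Rgs16, which quenches G-protein signals, had log2 fold changes of 3.82, 3.56 and 3.55.

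**Figure D3:**
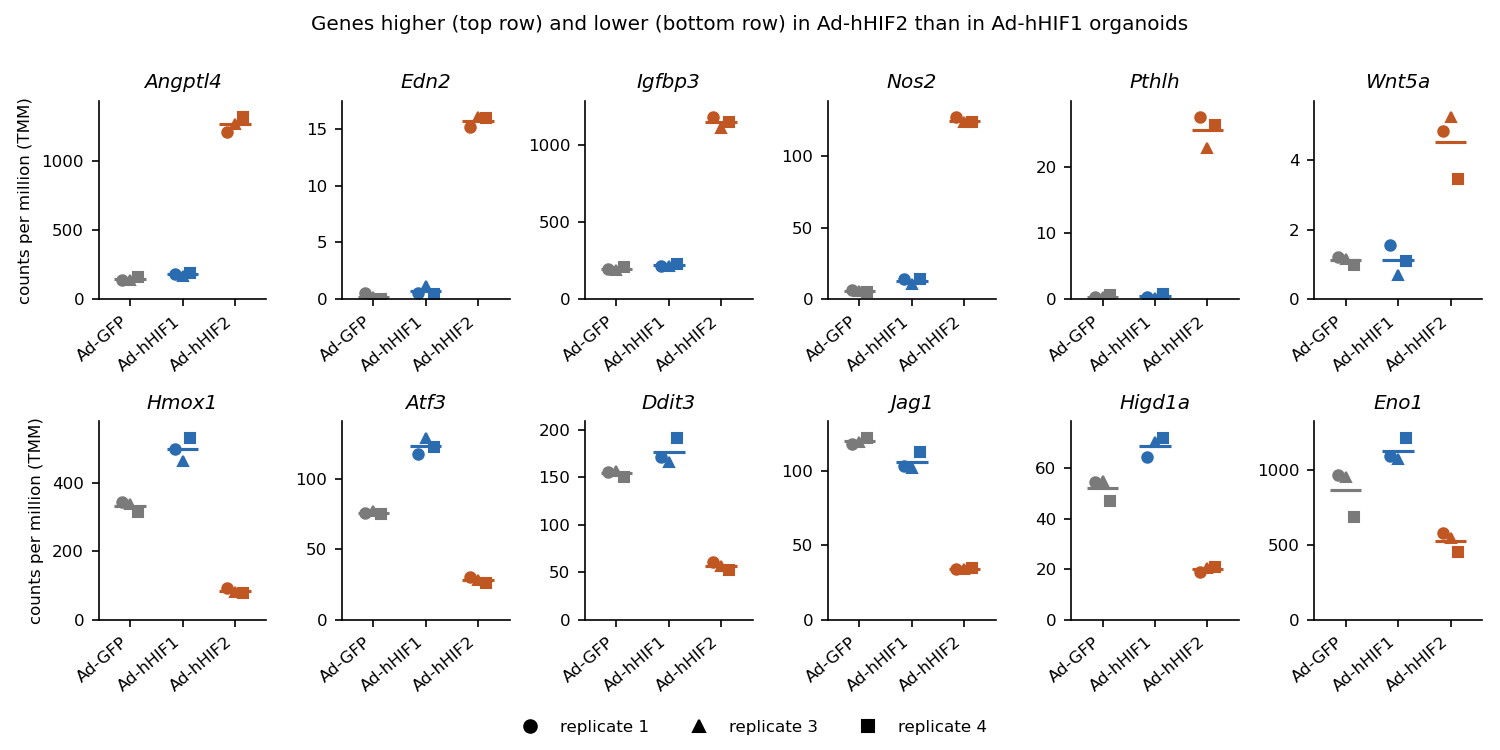
CPM after TMM scaling of 6 genes higher (top) and 6 genes lower (bottom) with Ad-hHIF2 than with Ad-hHIF1, 1 point a sample with the group mean as a line. The 3 Ad-hHIF2 samples lie apart from the 6 others in all 12 panels.

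Several signals to blood vessels were higher with Ad-hHIF2. Of the vasoactive and angiogenic genes, 8 of 22 tested members were called higher and 1 lower (7 and 0 without Ad-hHIF1 replicate 3), beside 2.42% and 3.70% of all genes. The higher calls numbered 5 to 9 over the alternatives run, and the median log2 fold change was 0.42. Angptl4, an inhibitor of lipoprotein lipase that also acts on vessels, was at 1211, 1274 and 1319 CPM in the Ad-hHIF2 samples and 185, 167 and 189 CPM in the Ad-hHIF1 samples (log2 fold change 2.81 ± 0.09, adjusted p = 5.4e-08). Edn2, an endothelin, was at 15.1, 16.0 and 15.9 CPM in the Ad-hHIF2 samples and 0.524, 1.14 and 0.435 CPM in the Ad-hHIF1 samples (log2 fold change 4.56 ± 0.50, adjusted p = 0.00012). Apln, the ligand of the apelin receptor, was at 12.2, 11.4 and 14.6 CPM in the Ad-hHIF2 samples and 1.45, 1.18 and 1.30 CPM in the Ad-hHIF1 samples (log2 fold change 3.27 ± 0.20, adjusted p = 2.4e-06). In each, the lowest Ad-hHIF2 sample lay far above the highest Ad-hHIF1 sample. Pgf, a VEGF family member, was at 426 ± 8.59 against 133 ± 8.40 CPM (log2 fold change 1.68 ± 0.07, adjusted p = 3e-07). Adm, the vasodilator adrenomedullin, was at 175 ± 6.52 against 72.5 ± 4.59 CPM (log2 fold change 1.27 ± 0.07, adjusted p = 1.1e-06). Flt1, a receptor for Pgf and Vegfa, and Ramp3, a partner of the adrenomedullin receptor, had log2 fold changes of 1.03 and 1.15, and the Ramp3 call was lost without any of the Ad-hHIF2 libraries, without Ad-hHIF1 replicate 3 (0.99) and with the silent receptor covariate (0.79, adjusted p = 0.23). Vegfa itself, the most abundant uncalled member, was at 1022 ± 29.3 against 802 ± 61.0 CPM (log2 fold change 0.35 ± 0.08, adjusted p = 0.010), under the 2-fold minimum. Edn1 went the other way at 1.29 ± 0.270 against 2.83 ± 1.08 CPM (log2 fold change -1.12), a call that was lost without Ad-hHIF1 replicate 3 and without Ad-hHIF2 replicate 1 or 3. The 6 endothelial markers summed to 0.18 to 0.26 TPM in the Ad-hHIF2 samples and 0.20 to 0.37 TPM in the Ad-hHIF1 samples, with Tek at 0 in all of them.

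Several matrix genes were higher in Ad-hHIF2 as well. In the collagen and matrix list, 8 of 43 tested members were called higher and 1 lower (8 and 0 without Ad-hHIF1 replicate 3), beside 2.42% and 3.70% of all genes. The higher calls numbered 3 to 8 over the alternatives run, and the median of the list was 0.26. Col12a1, a fibril-associated collagen, was at 38.4, 36.6 and 39.6 CPM in the Ad-hHIF2 samples and 4.51, 5.56 and 5.80 CPM in the Ad-hHIF1 samples (log2 fold change 2.85 ± 0.15, adjusted p = 7.7e-07). Fn1, fibronectin, was at 1964, 1742 and 1794 CPM in the Ad-hHIF2 samples and 814, 823 and 809.6 CPM in the Ad-hHIF1 samples (log2 fold change 1.17 ± 0.07, adjusted p = 2.9e-06). The groups did not overlap for either gene. Nid1, which ties laminin to type IV collagen, was at 231 ± 17.6 against 104 ± 2.43 CPM (log2 fold change 1.15 ± 0.08, adjusted p = 3.4e-06). Thbs1, a matricellular regulator of TGF-β and vessels, was at 214 ± 4.12 against 100.5 ± 2.08 CPM (log2 fold change 1.09 ± 0.07, adjusted p = 2.6e-06). Col27a1, Col11a1, Nid2 and the proteoglycan Vcan were also called, with log2 fold changes of 1.31, 1.19, 1.62 and 1.25. The lone lower member, Col26a1, was highest in Ad-hHIF1 replicate 3 (1.63, 8.36 and 1.92 CPM in the Ad-hHIF1 samples) and was not called without it or without any of the Ad-hHIF2 libraries. Col4a1, the most abundant uncalled member, was at 222 ± 6.76 against 174 ± 7.92 CPM (log2 fold change 0.35 ± 0.07, adjusted p = 0.0051). The 9 fibroblast and mesenchyme markers, which include Col1a1, Col3a1, Dcn and Pdgfrb, summed to 0.35 to 0.55 TPM in the Ad-hHIF2 samples and 0.31 to 1.0 TPM in the Ad-hHIF1 samples.

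Of 7 laminin chains tested, 2 were called higher and 0 lower, beside 2.42% and 3.70% of all genes. At an adjusted p below 0.05 with no fold minimum, 5 were higher and 0 lower, beside 13.7% and 12% of all genes. Lamb1, a laminin β chain of basement membranes, was at 820.4, 827 and 795 CPM in the Ad-hHIF2 samples and 205, 201 and 213 CPM in the Ad-hHIF1 samples (log2 fold change 1.98 ± 0.07, adjusted p = 6.4e-08), with no overlap. Lama3, a chain of the laminin that anchors epithelia, was at 72.1 ± 0.608 against 23.9 ± 1.68 CPM (log2 fold change 1.59 ± 0.07, adjusted p = 2.7e-07). Over laminin and integrin chains, 2 of 25 tested members were called higher and 1 lower (2 and 1 without Ad-hHIF1 replicate 3). At an adjusted p below 0.05 with no fold minimum the counts were 13 higher and 2 lower, against 13.7% and 12% of all genes. Lama5, the most abundant, was at 1770.3 ± 16.1 against 1329.7 ± 107 CPM (log2 fold change 0.41 ± 0.08, adjusted p = 0.0046), and Itgb7, the β chain of a leukocyte homing integrin, was lower (-1.72). Of collagen hydroxylases and lysyl oxidases, 1 of 16 tested members was called higher and 1 lower (1 and 1 without Ad-hHIF1 replicate 3). The shares of all genes were 2.42% and 3.70%. Loxl2, which cross-links collagen, was higher at 172 ± 4.38 against 74.9 ± 3.98 CPM (log2 fold change 1.20 ± 0.07, adjusted p = 1.7e-06), and P4ha2, a collagen prolyl hydroxylase, was lower at 68.2 ± 4.60 against 164 ± 7.33 CPM (log2 fold change -1.27 ± 0.10, adjusted p = 1.1e-05). P4hb, the partner subunit of P4ha2, stood at -0.85, below the 2-fold minimum.

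Among TGF-β and BMP genes, 3 of 38 tested members were called higher and 2 lower (3 and 2 without Ad-hHIF1 replicate 3). Smad7, which feeds back on TGF-β receptors, was at 88.1 ± 3.99 against 33.1 ± 4.25 CPM (log2 fold change 1.41 ± 0.10, adjusted p = 4.8e-06). Id2, an inhibitor of bHLH factors, was higher (1.59), while its relative Id3 and the stress cytokine Gdf15 were lower (-1.16 and -1.20). The medium of every sample held a TGF-β receptor inhibitor.

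Several growth factors and cytokines were higher in Ad-hHIF2. Igfbp3, which binds IGFs, was at 1176, 1109.5 and 1146 CPM in the Ad-hHIF2 samples and 218, 218 and 231 CPM in the Ad-hHIF1 samples (log2 fold change 2.36 ± 0.08, adjusted p = 5.4e-08). Lif, a gp130 cytokine, was at 51.1, 47.9 and 55.3 CPM in the Ad-hHIF2 samples and 11.1, 13.0 and 10.1 CPM in the Ad-hHIF1 samples (log2 fold change 2.18 ± 0.10, adjusted p = 3.8e-07). Tgfa, a ligand of the EGF receptor, was at 86.9, 79.6 and 80.0 CPM in the Ad-hHIF2 samples and 28.2, 30.6 and 29.8 CPM in the Ad-hHIF1 samples (log2 fold change 1.48 ± 0.12, adjusted p = 1.2e-05). All 3 genes kept their groups apart. Lifr, the receptor of Lif, and Il6ra, that of IL-6, were also higher (1.30 and 1.52), as was Cx3cl1, the chemokine fractalkine, at 63.3 ± 5.70 against 23.0 ± 1.55 CPM (log2 fold change 1.46 ± 0.11, adjusted p = 7.5e-06). Over cytokines and STATs, 6 of 33 tested members were called higher and 2 lower (6 and 2 without Ad-hHIF1 replicate 3). The lower members were Csf2 (GM-CSF) at 2.58 ± 0.189 against 14.1 ± 0.945 CPM (log2 fold change -2.45 ± 0.14, adjusted p = 1.4e-06) and Ccl20, a chemokine that recruits CCR6 cells (-1.37). Csf1r, the CSF1 receptor of macrophages, was higher (3.11) at a low level of 3.38 ± 0.784 against 0.390 ± 0.0448 CPM, and is itself 1 of 8 immune markers. These summed to 1.63 to 3.99 TPM in Ad-hHIF2 against 1.28 to 1.66 TPM in Ad-hHIF1, most of it from Cd68, at 3.51, 1.38 and 1.88 TPM against 1.03, 1.18 and 1.27 TPM, while Ptprc was at most 0.02 TPM and Adgre1 was at 0 in all 6 samples. Their part in the result was not tested. Il6st, the common gp130 receptor, was at 72.3 ± 1.48 against 47.2 ± 2.97 CPM (log2 fold change 0.62 ± 0.07, adjusted p = 9.5e-05). In the EGF family, 3 of 16 tested members were called higher and 0 lower (2 and 0 without Ad-hHIF1 replicate 3), and Adam10, a sheddase of membrane ligands, was at 85.3 ± 7.80 against 37.8 ± 1.11 CPM (log2 fold change 1.17 ± 0.08, adjusted p = 6.6e-06). Fgf1 and Fgf18 were higher (2.62 and 1.36) and Fgfbp1, which releases FGFs from the matrix, was lower (-1.19). Igfbp7 was lower at 72.3 ± 4.39 against 157 ± 15.5 CPM (log2 fold change -1.12 ± 0.09, adjusted p = 1.4e-05).

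Small-molecule mediators changed at named enzymes. Nos2, the inducible nitric oxide synthase, was at 127, 124 and 124 CPM in the Ad-hHIF2 samples and 14.3, 10.9 and 13.9 CPM in the Ad-hHIF1 samples (log2 fold change 3.26 ± 0.11, adjusted p = 5.4e-08), against 6.23, 5.99 and 5.15 CPM in the Ad-GFP samples, and no Ad-hHIF2 sample came near an Ad-hHIF1 sample. Ass1, which regenerates arginine for that enzyme, was lower (-1.23, a call lost with the silent receptor covariate), as were the polyamine enzymes Odc1 at 26.4 ± 0.478 against 55.7 ± 5.32 CPM (log2 fold change -1.08 ± 0.09, adjusted p = 1.3e-05) and Srm (-1.34). In that list, 1 of 16 tested members were called higher and 3 lower (1 and 3 without Ad-hHIF1 replicate 3). In prostaglandin synthesis, Ptges, the last enzyme towards PGE2, was at 188, 186 and 183 CPM in the Ad-hHIF2 samples and 59.7, 59.6 and 62.1 CPM in the Ad-hHIF1 samples (log2 fold change 1.62 ± 0.08, adjusted p = 7.2e-07), while Ptgs2 (COX-2), which acts before it, was at 61.3, 57.9 and 55.1 CPM in the Ad-hHIF2 samples and 159.7, 154 and 155 CPM in the Ad-hHIF1 samples (log2 fold change -1.43 ± 0.07, adjusted p = 3.9e-07). Neither pair of groups overlapped. Pla2g4a, which frees arachidonic acid, stood at -0.89 (adjusted p = 7e-06), below the 2-fold minimum. For sphingosine-1-phosphate, the exporter Spns2 was at 75.0 ± 3.78 against 18.0 ± 1.39 CPM (log2 fold change 2.06 ± 0.08, adjusted p = 6.9e-08) and the phosphatase Sgpp1 was higher (1.25), while Sgpp2 was lower (-1.02).

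Iron genes, a known HIF2 programme of the duodenum, were called in both directions. Cybrd1, the brush-border ferric reductase, was at 10.97, 11.4 and 12.7 CPM in the Ad-hHIF2 samples and 1.54, 1.09 and 1.10 CPM in the Ad-hHIF1 samples (log2 fold change 3.22 ± 0.21, adjusted p = 3.6e-06). Ncoa4, which carries ferritin to the lysosome, was at 381 ± 21.9 against 126 ± 9.43 CPM (log2 fold change 1.60 ± 0.11, adjusted p = 4.6e-06). Tfrc, the transferrin receptor, was lower at 25.7 ± 0.901 against 58.1 ± 6.29 CPM (log2 fold change -1.18 ± 0.08, adjusted p = 6.1e-06). Hmox1, heme oxygenase 1 (chr8:75093621.0-75100589.0, GRCm38), was lower at 90.9, 80.0 and 77.7 CPM in the Ad-hHIF2 samples and 497, 462 and 532 CPM in the Ad-hHIF1 samples (log2 fold change -2.58 ± 0.09, adjusted p = 6.4e-08), against 331 ± 15.4 CPM in the Ad-GFP samples. For all 4 genes the groups stayed apart. Over the list, 2 of 14 tested members were called higher and 2 lower (2 and 2 without Ad-hHIF1 replicate 3). The ferritin light chain Ftl1 was at 779 ± 52.9 against 955 ± 62.9 CPM (log2 fold change -0.29 ± 0.09, adjusted p = 0.032).

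Of the glycolysis genes that passed the test, most lay on the Ad-hHIF1 side. At 2-fold, 0 of 24 tested members were called higher and 3 lower (0 and 2 without Ad-hHIF1 replicate 3), beside 2.42% and 3.70% of all genes. The lower calls numbered 0 to 3 over the alternatives run. With no fold minimum the counts were 3 higher and 13 lower, beside 13.7% and 12% of all genes, and the median log2 fold change was -0.45. Eno1, enolase, was at 577, 544 and 455 CPM in the Ad-hHIF2 samples and 1095, 1074 and 1215 CPM in the Ad-hHIF1 samples (log2 fold change -1.10 ± 0.14, adjusted p = 0.00032), with 869 ± 159.7 CPM in the Ad-GFP samples and no overlap between the HIF groups. Pdk3, a kinase that holds pyruvate back from mitochondria, was lower at 1.54 ± 0.274 against 3.42 ± 0.335 CPM (log2 fold change -1.14 ± 0.22, adjusted p = 0.0042), and the glucose transporter Slc2a3, at 0.259 to 1.27 CPM, lost its call without any of 5 of the 6 HIF libraries, Ad-hHIF2 replicate 3 being the exception. Lower genes that passed the test but not the 2-fold minimum were Pdk1 (-0.94), the lactate exporter Slc16a3 (-0.89), Pgam1 (-0.89), the glucose transporter Slc2a1 (-0.83), Aldoc (-0.82), Pfkfb3 (-0.70), Hk2 (-0.52), Hk1 (-0.49), Aldoa (-0.40) and Gapdh (-0.56), the last at 2228 ± 187 against 3279 ± 707 CPM. Gpi1, Pfkm and Pdk2 were higher (0.29, 0.40 and 0.48). Ldha, Pkm and Pgk1 did not pass the test (-0.16, -0.12 and -0.28). The median stayed below 0 under every alternative run, between -0.54 and -0.07, nearest to 0 on the log2(TPM + 1) scale. Glycogen synthase Gys1 was lower at 52.4, 48.4 and 46.3 CPM in the Ad-hHIF2 samples and 107, 99.97 and 109 CPM in the Ad-hHIF1 samples (log2 fold change -1.10 ± 0.07, adjusted p = 3.2e-06), and so was the phosphorylase Pygl (-1.08).

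Genes that hypoxia induces in many cell types did not move together. Of that list, 4 of 19 tested members were called higher and 3 lower (3 and 3 without Ad-hHIF1 replicate 3). Ankrd37, an ankyrin-repeat protein, was at 75.5, 91.4 and 72.8 CPM in the Ad-hHIF2 samples and 17.5, 14.6 and 17.2 CPM in the Ad-hHIF1 samples (log2 fold change 2.28 ± 0.17, adjusted p = 7.7e-06). Cited2, which competes with HIF for CBP, was at 211 ± 25.9 against 80.0 ± 0.529 CPM (log2 fold change 1.40 ± 0.10, adjusted p = 6.1e-06). Bhlhe40, a repressor of the clock and of hypoxia genes, was at 408 ± 25.1 against 186 ± 7.32 CPM (log2 fold change 1.13 ± 0.07, adjusted p = 3.3e-06). Ddit4, an inhibitor of mTORC1, was lower at 19.3, 22.2 and 19.3 CPM in the Ad-hHIF2 samples and 57.0, 50.1 and 63.6 CPM in the Ad-hHIF1 samples (log2 fold change -1.49 ± 0.11, adjusted p = 7.2e-06). Fam162a, a mitochondrial protein of hypoxic cell death, was at 57.4 ± 6.43 against 140.4 ± 10.4 CPM (log2 fold change -1.29 ± 0.10, adjusted p = 7.7e-06), and the glycoprotein hormone Stc2 was also lower (-1.86). None of these groups overlapped. Pnrc1 was higher (1.06), but fell just under 2-fold without Ad-hHIF1 replicate 3 (0.95) or Ad-hHIF2 replicate 1. Ero1l, an oxidase of the endoplasmic reticulum and the most abundant uncalled member, was at 1368 ± 49.3 against 732 ± 22.9 CPM (log2 fold change 0.90 ± 0.08, adjusted p = 3e-05). Higd1a, a hypoxia-induced mitochondrial protein, was at 18.9, 20.3 and 20.7 CPM in the Ad-hHIF2 samples and 64.2, 70.3 and 72.01 CPM in the Ad-hHIF1 samples (log2 fold change -1.79 ± 0.08, adjusted p = 3.8e-07), and Bnip3, a mitophagy receptor, stood at -0.34 (adjusted p = 0.010).

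**Figure D4:**
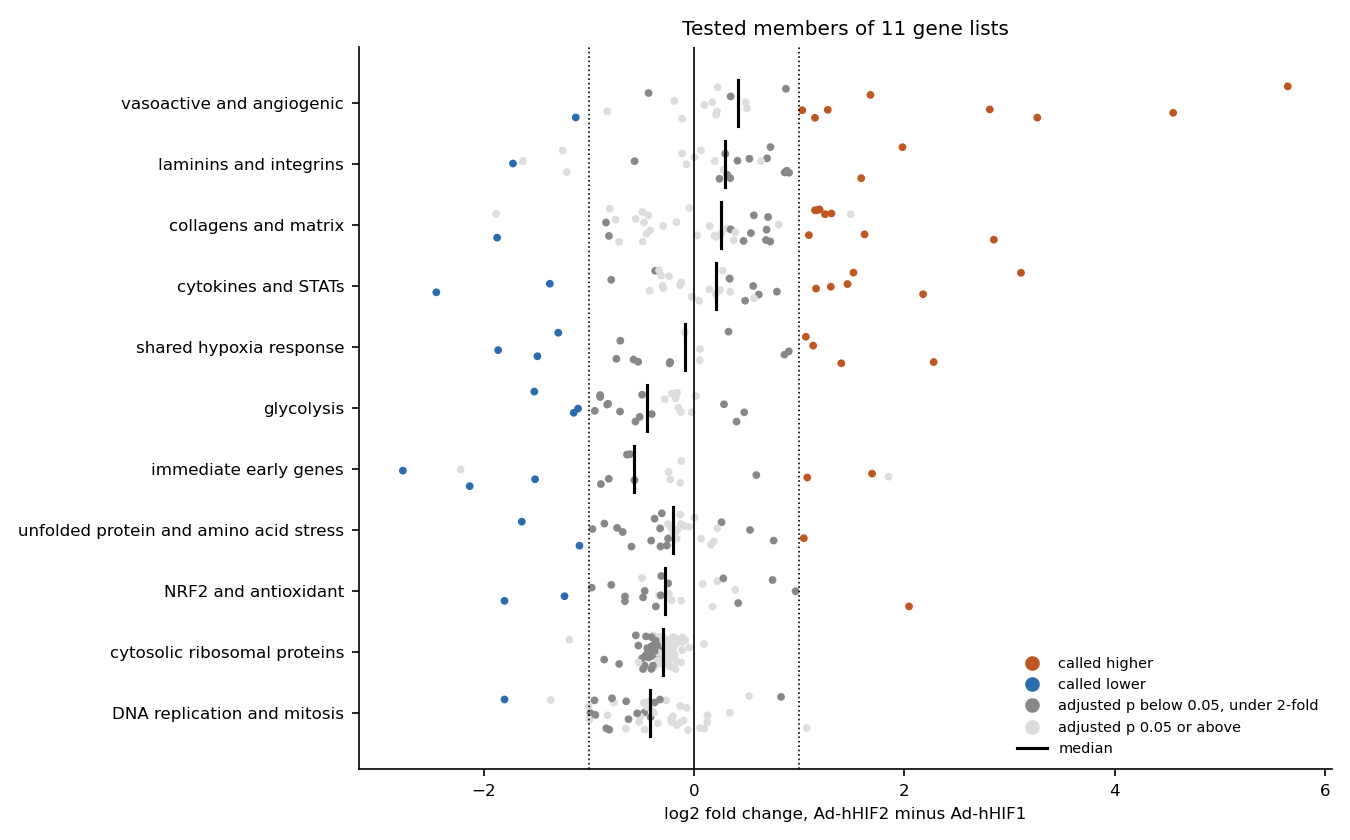
Log2 fold change (Ad-hHIF2 minus Ad-hHIF1) of each tested member of 11 gene lists, with the list median as a black bar and dotted lines at 2-fold. Members of the vasoactive list reach 5.65 (Pthlh), while the medians of glycolysis, immediate early genes and DNA replication lie below 0, at -0.45, -0.57 and -0.42.

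Stress genes named here were mostly lower with Ad-hHIF2. At 2-fold the shares of their list were near those of all genes. With no fold minimum more members were lower, 14 of 35 against 12% of all genes. Atf3, a stress-induced transcription factor, was at 30.1, 27.98 and 26.2 CPM in the Ad-hHIF2 samples and 118, 129.6 and 122.85 CPM in the Ad-hHIF1 samples (log2 fold change -2.13 ± 0.08, adjusted p = 6e-08), against 76.1 ± 0.961 CPM in the Ad-GFP samples. Ddit3 (CHOP), which acts late in the unfolded protein response, was at 60.8, 56.6 and 52.6 CPM in the Ad-hHIF2 samples and 171, 166 and 192 CPM in the Ad-hHIF1 samples (log2 fold change -1.64 ± 0.08, adjusted p = 6e-07). Hspa5 (BiP), the main chaperone of the endoplasmic reticulum, was at 1359, 1449.6 and 1323 CPM in the Ad-hHIF2 samples and 2870.4, 2856 and 3069 CPM in the Ad-hHIF1 samples (log2 fold change -1.09 ± 0.08, adjusted p = 6.8e-06). The groups did not overlap for any of these. In the unfolded protein and amino acid stress list, 1 of 35 tested members were called higher and 2 lower (0 and 2 without Ad-hHIF1 replicate 3), beside 2.42% and 3.70% of all genes, and with no fold minimum the counts were 4 higher and 14 lower, beside 13.7% and 12%. The chaperone Hsp90b1, the cystine transporter Slc7a11, Herpud1 and Trib3 had log2 fold changes of -0.97, -0.85, -0.73 and -0.68, all under 2-fold. These 4 genes were chosen after their values were seen. Sesn2 was the member called higher (1.04), and it fell just under 2-fold without Ad-hHIF1 replicate 3. Of the NRF2 and antioxidant genes, 1 of 26 tested members were called higher and 2 lower (1 and 2 without Ad-hHIF1 replicate 3). Gclc, the rate-limiting enzyme of glutathione synthesis, was at 8.77 ± 0.713 against 30.6 ± 0.704 CPM (log2 fold change -1.80 ± 0.08, adjusted p = 3.8e-07), Srxn1, which repairs peroxiredoxins, was lower (-1.23), and Txnrd1 stood at -0.97. Sepp1, a secreted selenoprotein, was higher at 1154 ± 34.0 against 279.6 ± 10.6 CPM (log2 fold change 2.04 ± 0.07, adjusted p = 6e-08).

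Immediate early genes moved in both directions. Of that list, 2 of 17 tested members were called higher and 3 lower (2 and 3 without Ad-hHIF1 replicate 3), with a median of -0.57. Egr1 was at 4.71, 2.75 and 5.82 CPM in the Ad-hHIF2 samples and 28.04, 32.4 and 29.0 CPM in the Ad-hHIF1 samples (log2 fold change -2.77 ± 0.23, adjusted p = 1.6e-05), and Fosb was lower (-1.51). Ier3, an immediate early gene of cell survival, was higher at 323 ± 16.6 against 99.99 ± 4.55 CPM (log2 fold change 1.69 ± 0.09, adjusted p = 8.6e-07), and so was the AP-1 member Fosl2 at 161 ± 6.87 against 76.4 ± 2.41 CPM (log2 fold change 1.08 ± 0.07, adjusted p = 4.6e-06). Junb, the most abundant uncalled member, was at 519 ± 20.9 against 344 ± 65.1 CPM (log2 fold change 0.59 ± 0.13, adjusted p = 0.0067).

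Few ribosomal and replication genes were called. Of the cytosolic ribosomal proteins, none of 80 was called in either direction, with Rpsa, the most abundant, at 1562 ± 125 against 2069.5 ± 63.8 CPM (log2 fold change -0.41 ± 0.08, adjusted p = 0.0053). With no fold minimum, 0 higher and 32 lower of the 80 passed the test, against 13.7% and 12% of all genes, and the median was -0.30. Among DNA replication and mitosis genes, 0 of 50 tested members were called higher and 1 lower (0 and 1 without Ad-hHIF1 replicate 3), with 1 higher and 15 lower of 50 at no fold minimum and a median of -0.42, and most members did not pass the test. The lower member was Tyms, thymidylate synthase, at 22.8, 32.5 and 38.7 CPM in the Ad-hHIF2 samples and 90.7, 197 and 41.1 CPM in the Ad-hHIF1 samples, where Ad-hHIF1 replicate 3 is the highest sample, and its call was lost without Ad-hHIF2 replicate 1. Pcna, the sliding clamp of replication, was at 39.7 ± 3.97 against 53.9 ± 1.22 CPM (log2 fold change -0.44 ± 0.09, adjusted p = 0.0057). Both medians stayed below 0 under every alternative run, between -0.42 and -0.07 for ribosomal proteins and between -0.45 and -0.02 for replication genes, nearest to 0 on the log2(TPM + 1) scale. With counts scaled to their total alone they were -0.14 and -0.24, and that scaling moved the median of all genes to 0.17. Myc was lower at 69.9, 56.7 and 69.4 CPM in the Ad-hHIF2 samples and 132, 133 and 137 CPM in the Ad-hHIF1 samples (log2 fold change -1.04 ± 0.09, adjusted p = 1.7e-05). Of G1 cyclins, their kinases and CDK inhibitors, 2 of 16 tested members were called higher and 0 lower (2 and 0 without Ad-hHIF1 replicate 3). The shares of all genes were 2.42% and 3.70%. Ccnd2 was higher at 485, 424 and 442 CPM in the Ad-hHIF2 samples and 156, 144 and 149 CPM in the Ad-hHIF1 samples (log2 fold change 1.59 ± 0.08, adjusted p = 5.7e-07). Ccnd1 stood at 98.1 ± 4.82 against 171 ± 13.7 CPM (log2 fold change -0.80 ± 0.08, adjusted p = 7.4e-05), under the 2-fold minimum. Cdkn2c, an inhibitor of CDK4 and CDK6, was higher (1.47).

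The Wnt genes included the ligand that the study followed up. Wnt5a, a ligand of non-canonical Wnt signalling, was at 4.82, 5.22 and 3.46 CPM in the Ad-hHIF2 samples and 1.57, 0.701 and 1.10 CPM in the Ad-hHIF1 samples (log2 fold change 1.98 ± 0.31, adjusted p = 0.0011), against 1.20, 1.16 and 1.0 CPM in the Ad-GFP samples, and its level is among the lower ones described here. The lowest Ad-hHIF2 sample was above the highest Ad-hHIF1 sample. Wnt7a was lower at 3.16, 4.003 and 4.43 CPM in the Ad-hHIF2 samples and 10.5, 9.68 and 10.5 CPM in the Ad-hHIF1 samples (log2 fold change -1.41 ± 0.14, adjusted p = 5.1e-05), and the co-receptor Lrp5 was higher at 188 ± 13.5 against 83.8 ± 1.23 CPM (log2 fold change 1.17 ± 0.07, adjusted p = 2.2e-06). Over ligands and receptors, 2 of 21 tested members were called higher and 1 lower (2 and 2 without Ad-hHIF1 replicate 3). Lrp6, the most abundant uncalled member, was at 112 ± 5.77 against 81.0 ± 6.54 CPM (log2 fold change 0.47 ± 0.08, adjusted p = 0.0018). In the list of Wnt targets and stem cell markers, 0 of 20 tested members were called higher and 3 lower (1 and 2 without Ad-hHIF1 replicate 3): Myc, Sox9, a progenitor factor of the crypt (2.65 ± 0.350 against 7.46 ± 1.19 CPM, log2 fold change -1.50), and Ascl2, at under 1 CPM in all 6 samples, whose call was lost without any 1 of the 6 HIF libraries. Jag1, a Notch ligand, was lower at 34.4, 34.1 and 34.4 CPM in the Ad-hHIF2 samples and 103, 102 and 113 CPM in the Ad-hHIF1 samples (log2 fold change -1.63 ± 0.07, adjusted p = 1.6e-07), with no overlap.

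Epithelial identity genes moved in both directions. Sox2, a factor of foregut and stomach epithelium, was higher at 33.9, 30.7 and 26.5 CPM in the Ad-hHIF2 samples and 2.97, 2.98 and 3.17 CPM in the Ad-hHIF1 samples (log2 fold change 3.32 ± 0.25, adjusted p = 8e-06). Cdh17, liver-intestine cadherin, was higher at 318 ± 14.4 against 122 ± 3.49 CPM (log2 fold change 1.38 ± 0.08, adjusted p = 1.8e-06), and the 5 stomach markers summed to 2.27, 1.32 and 0.93 TPM in the Ad-hHIF2 samples and 0.46, 0.40 and 0.34 TPM in the Ad-hHIF1 samples. That sum came from Tff1 and Tff2, while Gkn1, Gkn2 and Muc5ac were at most 0.06 TPM in every sample. The 4 duodenum markers summed to 7.63, 3.89 and 4.20 TPM against 3.16, 3.12 and 3.15 TPM, with Gata4 at 3.27, 1.61 and 1.62 against 1.21, 1.17 and 1.19 TPM, Onecut2 also apart, and Pdx1 and Cdx2 overlapping between the groups. Both sums were highest in Ad-hHIF2 replicate 1, the library with the larger share of protein-coding counts. The part of either sum in the result was not tested. Espn, an actin bundler of microvilli, was lower at 1.81, 1.75 and 1.62 CPM in the Ad-hHIF2 samples and 13.8, 12.8 and 14.8 CPM in the Ad-hHIF1 samples (log2 fold change -3.00 ± 0.14, adjusted p = 3.8e-07). Of the enterocyte list, 2 of 23 tested members were called higher and 2 lower (2 and 1 without Ad-hHIF1 replicate 3). In the squamous and keratin list, 1 of 15 tested members were called higher and 4 lower (1 and 4 without Ad-hHIF1 replicate 3): the basal keratin Krt14 (-1.76), the cornified envelope gene Sprr1a (-1.10), S100a14 (-1.92) and S100a7a, at 6.64 ± 0.301 against 33.2 ± 1.05 CPM (log2 fold change -2.32 ± 0.07, adjusted p = 5.4e-08), were lower. Krt8, the most abundant uncalled member, was at 1256 ± 107 against 1096 ± 57.3 CPM (log2 fold change 0.20 ± 0.09, adjusted p = 0.13). Of fetal-like and YAP target genes, 2 of 19 tested members were called higher and 4 lower (2 and 4 without Ad-hHIF1 replicate 3). Those lower were Ly6a (-1.44), Anxa8 (-1.04), Il1rn (-1.08) and Spp1, at 404 ± 25.2 against 846 ± 5.74 CPM (log2 fold change -1.07 ± 0.08, adjusted p = 7.8e-06), and those higher were the gap junction gene Gja1 (1.43) and F3, tissue factor, at 246 ± 13.8 against 106 ± 4.81 CPM (log2 fold change 1.21 ± 0.07, adjusted p = 2.2e-06).

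Other protein-coding genes with the largest differences towards Ad-hHIF1 were named by the same rule as above, with the count minimum met in the Ad-hHIF1 group. They included Car6, a secreted carbonic anhydrase (2.78 ± 0.793 against 18.1 ± 1.44 CPM, log2 fold change -2.68 ± 0.22, adjusted p = 1.5e-05), Myh7b, a myosin heavy chain (0.981 ± 0.0973 against 5.38 ± 1.18 CPM, log2 fold change -2.46 ± 0.22, adjusted p = 2.8e-05), and Tmem132c (0.850 ± 0.277 against 4.33 ± 0.238 CPM, log2 fold change -2.36 ± 0.29, adjusted p = 0.00023). Also named by the rule were mt-Nd4l, a mitochondrially encoded subunit of complex I, Cacng4, a calcium channel subunit, and Mcmdc2, a meiotic MCM-domain protein. The mt-Nd4l gene was at 0, 0 and 0 CPM in the Ad-hHIF2 samples and 4.60, 4.03 and 1.69 CPM in the Ad-hHIF1 samples, and at 0, 1.94 and 0 CPM in the Ad-GFP samples. Its annotation overlaps that of mt-Nd4, whose groups overlapped (72.1 ± 23.0 against 102 ± 34.7 CPM, log2 fold change -0.50 ± 0.27, adjusted p = 0.22), and how the counting divided shared reads was not tested, so it is given no fold. Cacng4 was at 0.160, 0.765 and 0.679 CPM in the Ad-hHIF2 samples and 3.08, 12.9 and 1.41 CPM in the Ad-hHIF1 samples, and Mcmdc2 was at 1.99, 2.94 and 3.01 CPM in the Ad-hHIF2 samples and 9.31, 24.3 and 4.50 CPM in the Ad-hHIF1 samples. Both are highest in Ad-hHIF1 replicate 3, and all 3 genes lost their call when the share of silent receptor counts was a covariate. Cacng4 then went from a log2 fold change of -3.42 to -0.84 and Mcmdc2 from -2.25 to -0.53. The mt-Nd4l gene lost only the adjusted p (0.057), and its fitted size stayed large.

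The 20 genes that the study itself set side by side lay almost entirely on the Ad-hHIF2 side. Of these, 17 of 20 tested members were called higher and 0 lower (16 and 0 without Ad-hHIF1 replicate 3), with a median of 1.44. The list was chosen on these samples, so it is no independent evidence of a direction. Further members included Nedd9, a scaffold of focal adhesions, at 343, 308 and 314 CPM in the Ad-hHIF2 samples and 57.8, 62.5 and 53.6 CPM in the Ad-hHIF1 samples (log2 fold change 2.47 ± 0.09, adjusted p = 7e-08), Net1, a guanine nucleotide exchange factor, at 323 ± 16.3 against 102 ± 3.77 CPM (log2 fold change 1.66 ± 0.08, adjusted p = 3.3e-07), Stat6 at 63.9 ± 3.26 against 28.5 ± 4.85 CPM (log2 fold change 1.16 ± 0.11, adjusted p = 4e-05) and Ets1, which fell just under 2-fold without Ad-hHIF1 replicate 3 (0.97 against 1.03) or Ad-hHIF2 replicate 1. Klf4 and Foxo1 passed the test under the 2-fold minimum (0.95 and 0.86), and Adora2a did not pass (0.78, adjusted p = 0.29).

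Across the 55 gene lists, 18 had more members called higher than lower, 20 had more called lower than higher, and 6 had no member called, among them cholesterol and fatty acid synthesis, the nuclear-encoded respiratory chain and DNA repair. The bar plot of called members sets each list beside the shares of all genes tested, 2.42% and 3.70%.

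**Figure D5:**
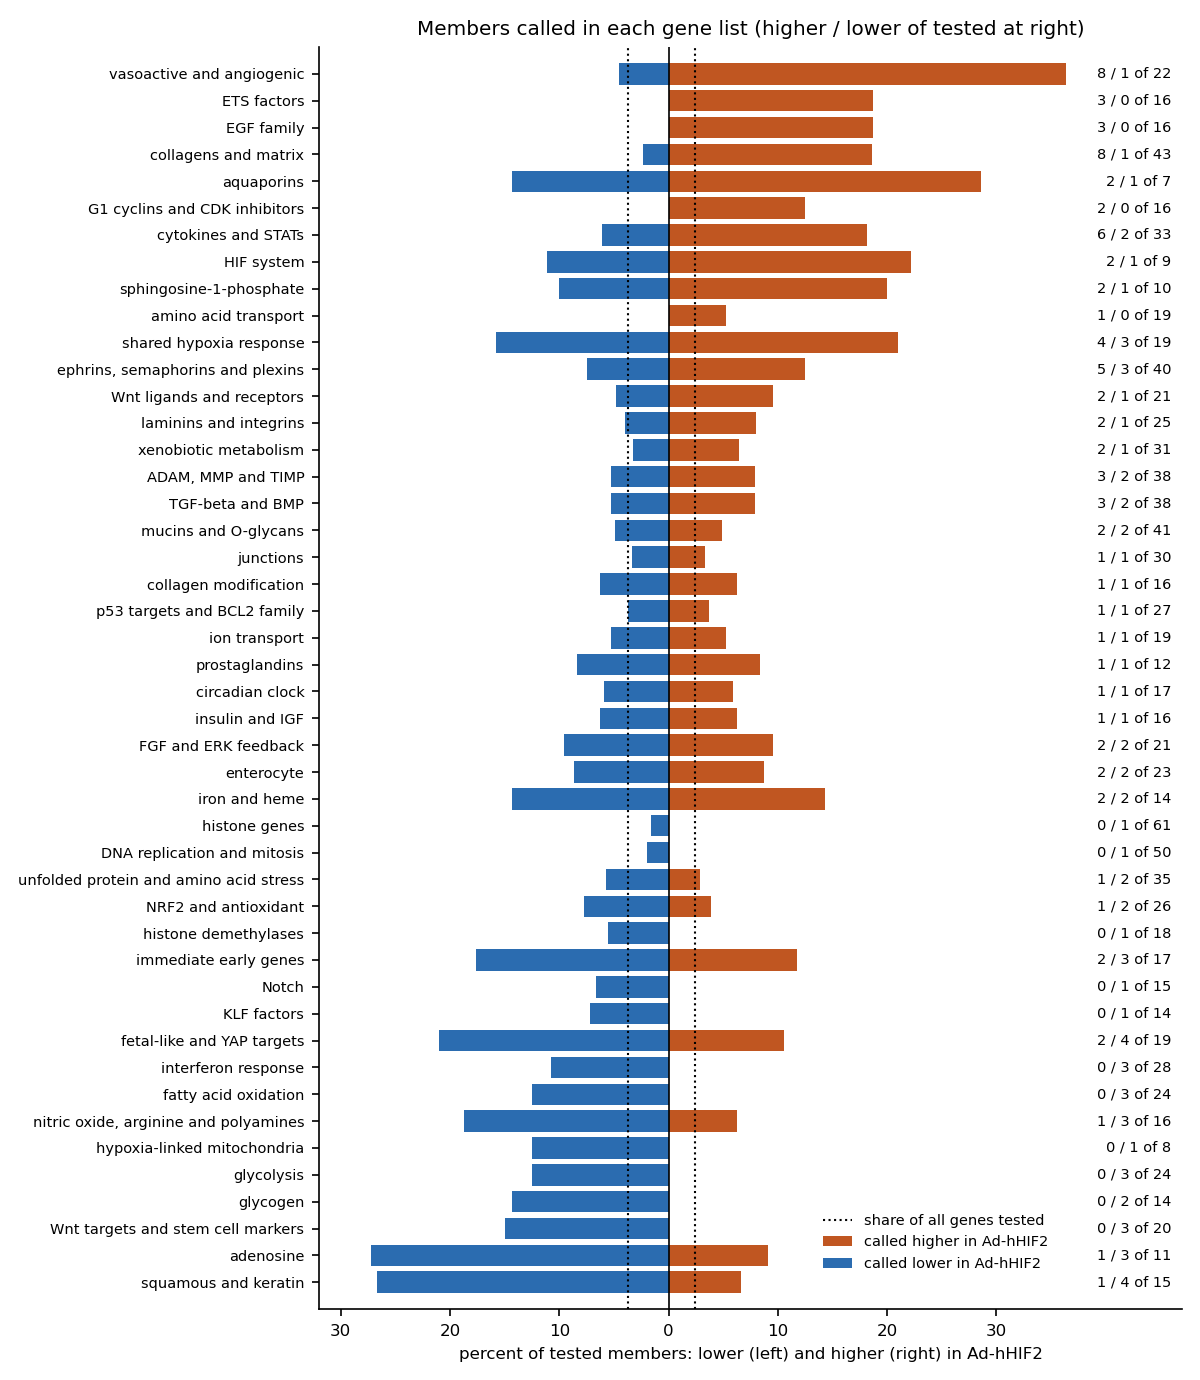
Percent of tested members called higher (orange, right) or lower (blue, left) with Ad-hHIF2 than with Ad-hHIF1, for gene lists with at least 5 tested members and at least 1 call, with dotted lines at the shares of all genes tested (2.42% and 3.70%). The list taken from the study and the mitochondrially encoded genes are not drawn. Of the lists drawn, the vasoactive list reaches furthest to the right, with 8 of 22 members called higher. The lists were chosen with earlier results of these data known.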

How the data were processed

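Poly(A) selection or depletion of the RNA is not given in the sources used here. Per the labels, total RNA of organoids transduced with Ad-GFP, Ad-hHIF2 or Ad-hHIF1 (3 samples each) was sequenced. The authors deposited 1 RSEM table per sample, with expected counts (estimated counts per gene, not normalized) and TPM (scaled to transcript length and library size, by the authors) for 46517 genes. The aligner, genome build and strand setting are not given in the sources used here. RSEM divides shared reads between genes, so counts need not be whole. Of the gene IDs, 46005 matched GENCODE M21 (GRCm38), which gave positions and types.

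Expected counts were rounded and tested with edgeR 4.0.16 in R 4.3.3 (filterByExpr, TMM, glmQLFit, glmQLFTest), with all 9 samples in 1 fit and the contrast Ad-hHIF2 minus Ad-hHIF1. P-values were adjusted by Benjamini-Hochberg over 15556 genes. Calls needed an adjusted p under 0.05 and an absolute log2 fold change of at least 1. The study used EBSeq, which was not run here. In simulated data on 15556 genes, with 50 changed at each fold, this fit called 34% of genes changed 2-fold, 78% changed 4-fold and 0.0586% of unchanged genes. Genes simulated at 2-fold sit on the fold minimum. The simulation held no library with extra background, unlike Ad-hHIF1 replicate 3. Its share of unchanged genes called therefore need not hold for these data, above all for the lower calls. Library totals were 21722618 to 51119041, and no pair of replicates agreed within sampling noise (chi-square per degree of freedom 23.7 or more). With 3 samples against 3, a permutation test of 1 gene could not go below 0.1, so none was used.

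Members, 55 gene lists (1303 genes tested) and named genes were chosen with earlier results of these data known. Named genes were Epas1, Hif1a, the 12 largest log2 fold changes in each direction among called protein-coding genes with at least 100 normalized counts in the higher group, groups that did not overlap and a call that held without Ad-hHIF1 replicate 3, and called members of the lists, with the most abundant uncalled member of lists described. Uncalled glycolysis, stress and other members named beyond these were chosen after their values were seen. Some genes that the rule named are not reported here. No set test was run. Alternatives changed the filter, scaling, test (DESeq2 1.42.0, limma 3.58.1), unit, samples and covariates.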

Additional observations from a re-analysis of the deposited data

How the results depend on the processing

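Results were recomputed with 1 choice changed at a time, with exceptions. The TPM alternatives changed the unit, scaling and test together. With DESeq2 the median of all genes was -0.018, the same as with median-ratio size factors, so its test and scaling may have changed together. Fits on fewer samples also changed the genes tested, to 14902 with only the 6 HIF samples and 16158 to 16481 without 1 HIF sample, against 15556. The 376 higher calls numbered 300 to 538 across filters, scalings, count tests and samples, and all moved by less than 1.5 times except with limma on log2(TPM + 1), which called 121, and with no fold minimum (2137). The lower calls were less stable: against 575, there were 338 with limma-voom, 17 with limma on log2(TPM + 1), 64 on log2(TPM + 0.1), 287 with the share of silent receptor counts as a covariate, 215 at an adjusted p below 0.01 and 1871 with no fold minimum. Leaving out 1 HIF sample gave 262 (without Ad-hHIF2 replicate 1) to 766 (without Ad-hHIF1 replicate 4) lower and 323 to 394 higher calls. Higher calls outnumbered lower calls with total counts only (538 and 482), which shifted the median of all genes to 0.17, and also with limma-voom (400 and 338), both TPM scales, the covariate (317 and 287), no fold minimum, an adjusted p below 0.01 (308 and 215), and without Ad-hHIF2 replicate 1 (323 and 262), Ad-hHIF2 replicate 3 (334 and 295) or Ad-hHIF1 replicate 3 (345 and 338). The cause of these changes was not tested. With the replicate number as a replicate block, 374 higher and 446 lower genes were called, 359 and 435 of them shared. Deviations of same-numbered samples from their group means correlated at -0.067, -0.069 and -0.194. With 3 samples a group, these values cannot decide whether the numbers pair the samples. Of 141 called genes named, 88 kept an adjusted p below 0.05 in every setting that tested them (17 for 125 of the genes, at least 15 for the rest), 53 lost it in at least 1 setting, most often on the TPM scales, and none changed direction. The low levels of genes such as Galnt9, Myl9 and Wnt5a in the Ad-hHIF1 samples rest on few reads. In the Ad-hHIF2 samples Galnt9 had 811, 876 and 552 reads and Myl9 had 167, 163 and 101.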

Other observations

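Further gene lists held values not described above, given here without an explanation. Of ephrins, semaphorins and plexins, 5 of 40 tested members were called higher and 3 lower (5 and 2 without Ad-hHIF1 replicate 3). Plxna4, a semaphorin receptor, was at 91.7, 90.4 and 93.5 CPM in the Ad-hHIF2 samples and 19.6, 15.2 and 19.1 CPM in the Ad-hHIF1 samples (log2 fold change 2.35 ± 0.11, adjusted p = 3.8e-07), and Sema4f was at 24.7, 24.9 and 25.5 CPM in the Ad-hHIF2 samples and 3.58, 6.66 and 4.04 CPM in the Ad-hHIF1 samples (log2 fold change 2.42 ± 0.21, adjusted p = 2.7e-05). Sema3c was lower at 105 ± 1.07 against 215 ± 3.27 CPM (log2 fold change -1.04 ± 0.07, adjusted p = 3.1e-06). Of the interferon response genes, 0 of 28 tested members were called higher and 3 lower (0 and 2 without Ad-hHIF1 replicate 3), all at low levels, of which Rtp4, a chaperone of receptors, reached the highest at 1.14, 1.02 and 0.712 CPM in the Ad-hHIF2 samples and 1.72, 3.02 and 2.33 CPM in the Ad-hHIF1 samples and lost its call without Ad-hHIF1 replicate 3 or Ad-hHIF2 replicate 3 or 4. Of xenobiotic genes, 2 of 31 tested members were called higher and 1 lower (2 and 1 without Ad-hHIF1 replicate 3), led by the cytochrome P450 Cyp2s1 at 499, 442 and 454 CPM in the Ad-hHIF2 samples and 152, 153 and 146 CPM in the Ad-hHIF1 samples (log2 fold change 1.63 ± 0.07, adjusted p = 3.3e-07). The groups did not overlap for these named genes.

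Among transcription factors, Klf10 was lower at 11.8 ± 0.630 against 32.8 ± 1.10 CPM (log2 fold change -1.48 ± 0.09, adjusted p = 2.2e-06), Elf3, an epithelial ETS factor, was higher at 71.6 ± 5.596 against 31.4 ± 1.45 CPM (log2 fold change 1.19 ± 0.09, adjusted p = 1.2e-05), and Ciart, a clock repressor, was lower (-1.41). In fatty acid oxidation, 0 of 24 tested members were called higher and 3 lower (0 and 3 without Ad-hHIF1 replicate 3). Those called included the mitochondrial coactivator Ppargc1a (2.85 ± 0.372 against 7.32 ± 0.363 CPM, log2 fold change -1.36 ± 0.14, adjusted p = 9.8e-05) and Pdk4 (-1.46). Plin2, which coats lipid droplets, was at 406 ± 11.5 against 700.4 ± 38.7 CPM (log2 fold change -0.79 ± 0.08, adjusted p = 6.7e-05), under the 2-fold minimum. Transporters were called in both directions: 1 of 19 tested ion transport genes higher and 1 lower, 2 of 7 aquaporins higher and 1 lower, and 1 of 19 amino acid transporters higher and 0 lower. Those higher included the bicarbonate cotransporter Slc4a4 at 196 ± 10.7 against 76.7 ± 2.82 CPM (log2 fold change 1.35 ± 0.07, adjusted p = 7e-07), the large neutral amino acid transporter Slc7a5 at 122.96 ± 4.50 against 52.6 ± 1.55 CPM (log2 fold change 1.23 ± 0.08, adjusted p = 3.2e-06) and Aqp3 at 8.05 ± 0.970 against 0.814 ± 0.102 CPM (log2 fold change 3.30 ± 0.42, adjusted p = 0.0003). Gcnt1, which branches O-glycans, was at 186 ± 7.41 against 63.9 ± 1.46 CPM (log2 fold change 1.54 ± 0.07, adjusted p = 3e-07), and the goblet mucin Muc2 was lower at 1.71 ± 0.267 against 3.69 ± 0.335 CPM (log2 fold change -1.11 ± 0.22, adjusted p = 0.0048), a call lost with the silent receptor covariate.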
